A study of Ananas comosus with 48 samples.

Results

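The 15 libraries described here were small RNA libraries of shoot apices from field-grown pineapple (Ananas comosus, cultivar 'MD1') whose plants had received water only, sampled on days 3, 4, 5, 6 and 8. They were chosen by label from the 48 libraries of the series, as the water group in the later part of the sampling, and they hold uninduced apices. Each day had 3 libraries. In every plant 10 ml of water had been injected into the centre of the rosette. The plants set against them at the end had received the same volume with 50 mg of ethephon, which releases ethylene and is used to force flowering, and gave 15 libraries at the same days. A library was made from pooled apices of 3 plants of 1 field replication, and leaf primordia were still attached to the excised apex. The question was how far the miR profile of the apex changed with time when no flowering had been induced. The comparison was day 8 against day 3, with days 4, 5 and 6 as the steps between. Each day was a single harvest, so time since treatment and the conditions of that harvest cannot be told apart. In such bulk tissue, fewer cells of a type and less RNA per cell cannot be told apart.

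Plant miRs are cut from hairpin precursors and guide ARGONAUTE proteins to transcripts with near-perfect matches. Many of their targets are transcription factors that shape the shoot apex, among them the HD-ZIP III genes of leaf polarity (miR166), GRAS genes of the meristem (miR171), auxin response factors (miR160 and miR167), TCP and GRF genes of organ growth (miR319 and miR396) and the AP2-like and SPL genes of phase change (miR172 and miR156). Such roles are known mainly from Arabidopsis and rice, and targets were not measured here. The 2 arms of a hairpin, 5p and 3p, are listed as separate miRs, and often only 1 of them is the known guide.

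The sequences that carry the results are given with bases 2 to 8, the seed, in capitals, as deposited with the counts. They are the miRs with the largest or steadiest changes, and those of the miR171 and miR396 families, whose members are close in sequence. The most abundant sequence, miR159c-3p, is shown because the list holds it under names of 2 families.
miR167a-5p: uGAAGCUGccagcaugaucuga
miR390a-5p: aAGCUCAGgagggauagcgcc
miR166b-3p: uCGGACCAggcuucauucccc
miR394a-3p: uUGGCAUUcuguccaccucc
miR396a-5p: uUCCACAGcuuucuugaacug
miR396b-5p: uCCACAGGcuuucuugaacug
miR159c-3p: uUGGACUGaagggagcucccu
miR159a-3p: aUUGGACUgaagggagcuccu
miR319a-5p: aGAGCUUCcuucaguccacuc
miR319d-5p: aGAGCUUCcuucagcccacuc
miR171a-3p: uUGAGCCGcgccaauaucucu
miR171d-3p: uUGAGCCGcgccaauaucacu
miR171b-3p: uUGAGCCGcgccaauaucacg
miR171f-3p: uUGAGCCGcgucaauaucucc
miR171c-3p: uGAUUGAGucgugccaauauc
miR171g-3p: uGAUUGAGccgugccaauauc
miR171f-5p: aGAUAUUGgcgugccucaauu
The sequence of miR159c-3p is listed as miR319a-3p and miR319d-3p too, so that its counts cannot be given to miR159 or to miR319 alone. Its seed differs from that of miR159a-3p, which lies at an edit distance of 2. miR319a-5p and miR319d-5p had the same seed and an edit distance of 1. The miR171 3p members fell into a seed group of 4 (a, b, d and f) and a seed group of 2 (c and g), while miR396a-5p and miR396b-5p had different seeds at an edit distance of 2. How many mismatches were allowed in counting is not given in the sources used here, so reads could have been split among such close sequences.

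The 15 libraries held 47806 to 83154 counts in listed miRs (median 62996), which was 0.359 to 0.616% of all sequencing tags, with 72 to 82 miRs detected. The total count was 71122 ± 10522 at day 8 and 60366 ± 19770 at day 3 (mean ± SD, n = 3 each; exact permutation p = 0.5, two-sided, where 0.1 is the smallest p possible, and 0.93 adjusted over 4 depth measures). A count of 3, taken as the floor, stood for 29.7 to 81.6 CPM (counts scaled to 1e+06 of the TMM-adjusted library total). Such floors cover counting error only. Scaling factors ran from 0.734 in replicate 1 of day 3 to 1.42 in replicate 2 of day 8. In the first principal component of the 57 tested miRs (43.2% of the variance), the 6 libraries of days 3 and 4 and replicate 1 of day 6 lay on the negative side. The other 8 libraries of days 5 to 8 lay on the positive side. No miR is a sure marker of a cell type of the apex, but miR164, miR166 and miR394, known from meristem and primordia, were summed as a check. They gave 97052 to 125030 CPM at day 8 and 159362 to 178318 CPM at day 3, with 11 of 15 listed sequences counted at each day. The sum was lower at day 8, and most of it was miR166b-3p. Not all members followed it, for miR394a-3p rose and the 4 tested members of miR164 did not pass the test.

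Between day 8 and day 3, 25 of 57 tested miRs (43.9%) were differentially expressed (DE, edgeR adjusted p under 0.05), 9 of them up (15.8%) and 16 down (28.1%). The tested 5p members of the miR319 and miR396 families rose. Their tested 3p members changed in the same direction but were not DE. Members of miR166, miR167, miR390 and miR827 fell, and miR171 was divided. At an unadjusted p under 0.05 there were 29 (50.9%). In 22 miRs (38.6%) the 3 day 8 libraries did not overlap the 3 day 3 libraries, 8 above (14%) and 14 below (24.6%). The upward and downward calls did not rest equally on the scaling. All 9 miRs that rose stayed DE under the 4 other scalings tried, and 3 of the 16 that fell did so, namely miR167a-5p, miR171c-3p and miR171f-5p. The median log2 change of the 57 miRs was -0.14 as reported. On the scale of all sequencing tags it moved by 0.47, and 13 miRs were DE, 10 up and 3 down. With RLE factors it moved by 0.26, with 20 DE, 11 up and 9 down. No DE miR changed sign under these scalings except miR166a-3p on the scale of all tags (0.13).

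**Figure D1:**
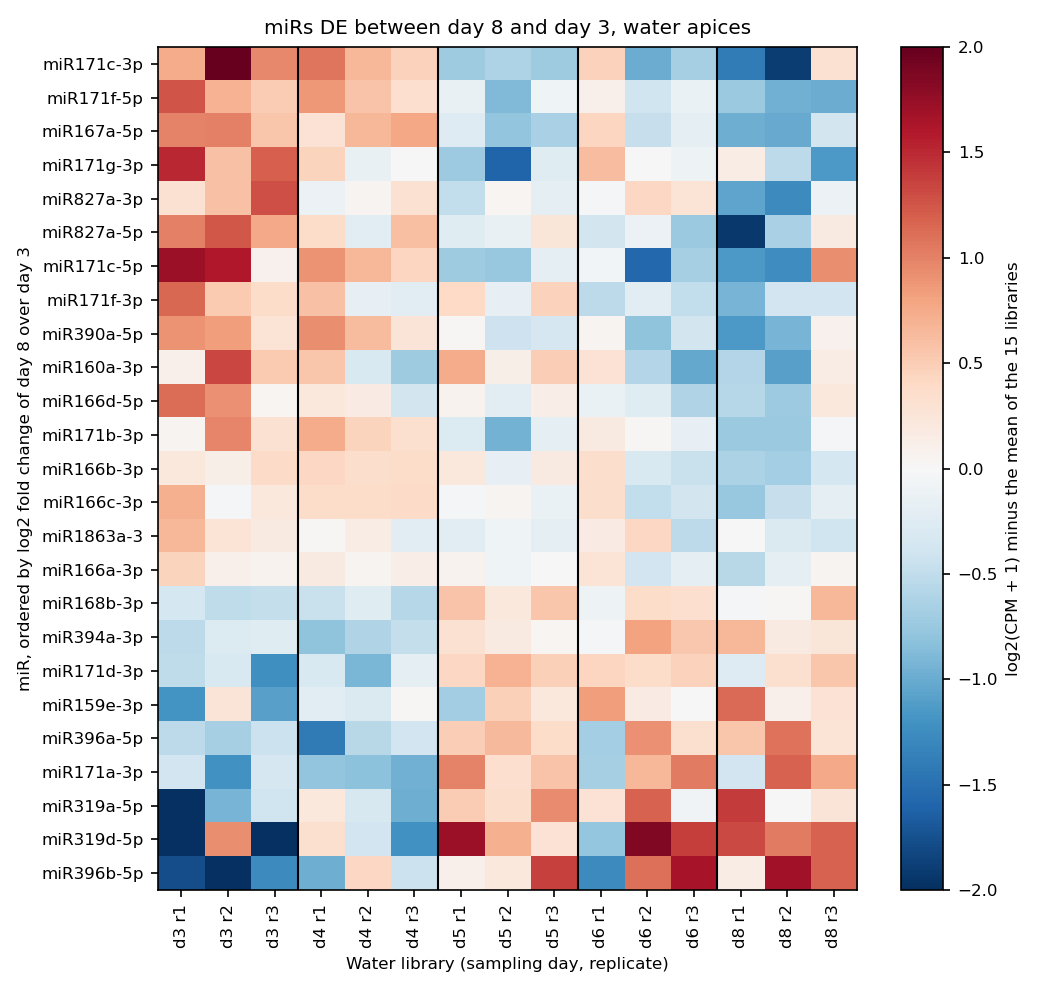
Level of the 25 DE miRs (rows) in the 15 water libraries (columns, by day and replicate), as log2(CPM + 1) minus the mean of the 15 libraries, with red above and blue below that mean. Days 3 and 4 carry the opposite colour to days 5 to 8 in most rows, and replicate 1 of day 6 is nearer to day 4 in 8 of the 12 miRs DE between day 5 and day 4. The rows were chosen for a difference between day 8 and day 3, so their opposite colours at those days follow from the choice.

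Leaving out 1 of the 6 day 8 and day 3 libraries at a time kept 9 of the 25 calls each time. These were miR167a-5p, miR390a-5p, miR166b-3p, miR166d-5p, miR171c-3p, miR171f-3p, miR171f-5p, miR396a-5p and miR396b-5p. Among these 9, only miR396a-5p and miR396b-5p were upward calls. Without replicate 1 of day 8, 12 of the 25 calls were lost and 13 miRs were DE. Leaving out replicate 2 of day 4, which is not in the comparison but shares in the estimate of spread, moved miR159e-3p, miR160a-3p, miR166a-3p and miR319d-5p just past the threshold (edgeR adjusted p = 0.051 each), as did replicate 3 of day 5 for miR166a-3p (0.0501) and replicate 3 of day 6 for miR319d-5p (0.051). Without the libraries of the highest and lowest scaling factor together, an alternative chosen after the data were seen, 7 were DE, 2 up and 5 down. Only miR167a-5p and miR171f-5p were DE under all 30 alternatives run for the comparison of single miRs.

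The auxin list (miR160, miR167, miR390 and miR393) had 10 tested members, of which 3 fell and none rose between day 8 and day 3. That 3 of 10 fell is near the 28.1% of all 57 miRs. Their median log2 change was -0.31, beside -0.14 for all 57 miRs. miR167a-5p, a regulator of auxin response factors 6 and 8 in Arabidopsis, had the smallest p of all miRs. Its level was 3934, 3836 and 5959 CPM in the day 8 libraries, against 15444, 15499 and 11306 CPM in the day 3 libraries. Every day 8 library lay far below every day 3 library. miR167a-5p fell by 1.62 log2 units (SE 0.23, edgeR adjusted p = 6.1e-07), so that the day 3 level was 3.07 times that of day 8. Over the alternatives the change ran from -2.0 to -1.08 and the adjusted p from 2.7e-08 to 0.0053. The group means were 14083 ± 2405 CPM at day 3, 11628 ± 1948 at day 4, 5280 ± 1032 at day 5, 7595 ± 2468 at day 6 and 4576 ± 1198 at day 8 (SD, n = 3 each). The earlier water apices had been low as well, at 3544 ± 480 CPM at 6 hours and 3392 ± 717 CPM on day 1, and had reached 11773 ± 1553 CPM on day 2. Its course in water was thus a rise by day 2 and lower group means from day 5. Replicate 1 of day 6, at 10365 CPM, was still at the level of day 4, where the lowest library had 9455 CPM.

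miR390a-5p, which starts the tasiRNAs that act on auxin response factors 3 and 4, stood at 296, 347 and 702 CPM at day 8, against 1224, 1173 and 795 CPM at day 3. The libraries did not overlap, although replicate 3 of both days lay close together. It fell by 1.21 (SE 0.31, edgeR adjusted p = 0.0029), and on the scale of all tags the call was lost. The other arm, miR390a-3p, stood at 190, 228 and 153 CPM against 680, 277 and 235 CPM, a log2 change of -0.96 (SE 0.44) with an adjusted p of 0.067 that missed the threshold in edgeR. miR160a-3p fell by 1.17 (SE 0.48, edgeR adjusted p = 0.047), and its 169, 119 and 281 CPM at day 8 overlapped the 272, 640 and 365 CPM of day 3. That call was lost without any of 4 of the 6 libraries (adjusted p of 0.26 without replicate 2 of day 3, 0.071 without replicate 3 of day 3, 0.11 without replicate 1 of day 8 and 0.21 without replicate 2 of day 8). Its partner miR160a-5p, the arm that targets auxin response factors, averaged 4903 CPM at day 8 and 5813 CPM at day 3, a log2 change of -0.24 (SE 0.20). miR393a-5p and miR393b-5p, which target auxin receptors, had the same counts in these libraries and are 1 measurement rather than 2. They stood at 84.6, 99.1 and 217 CPM against 27.2, 107 and 78.2 CPM, and their log2 change of 0.86 was not DE.

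**Figure D2:**
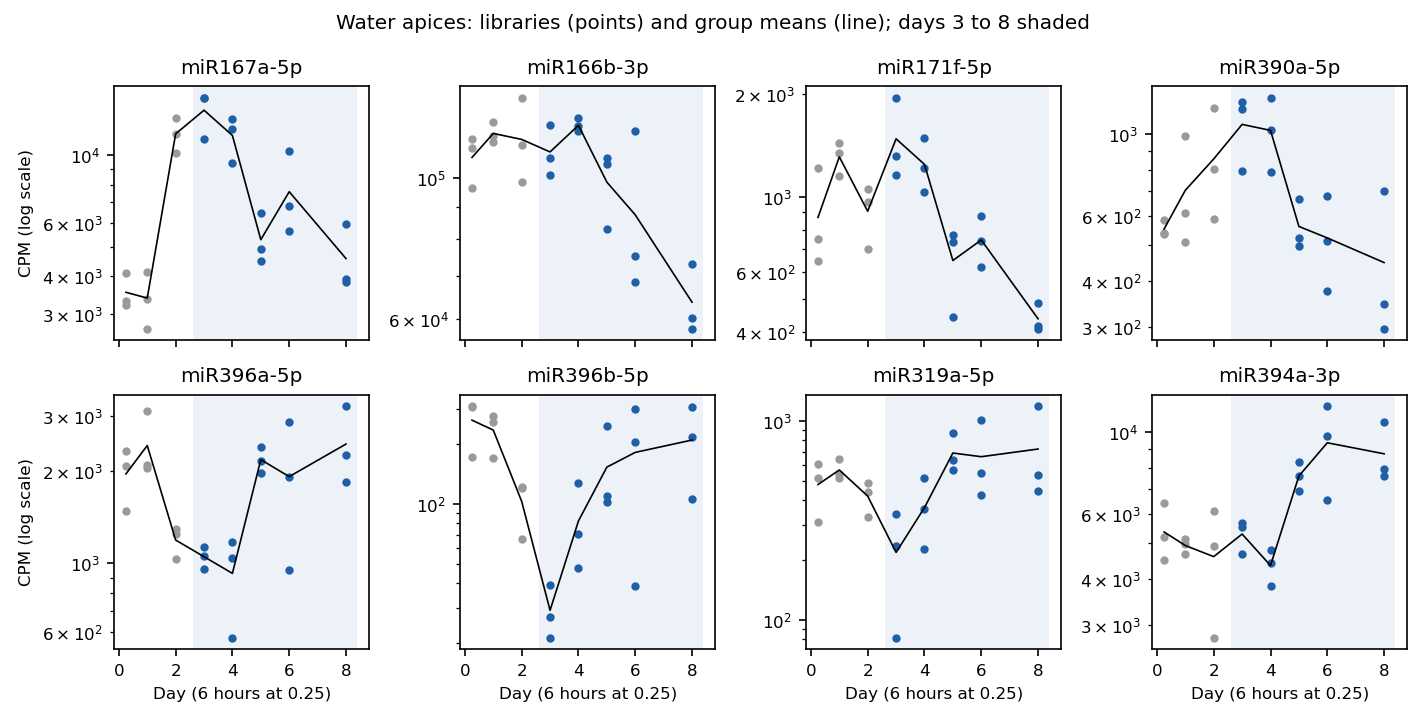
CPM on a log scale of 8 miRs in all water apices from 6 hours to day 8, with each library as a point, the group mean as a line and days 3 to 8 shaded. miR167a-5p lies between 3836 and 5959 CPM at day 8 and between 11306 and 15499 CPM at day 3, and the points of miR396a-5p and miR396b-5p at day 8 lie above all of those at day 3.

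The boundary, meristem and polarity list (miR164, miR165, miR166, miR171 and miR394) had 19 tested members, of which 10 fell and 3 rose, beside 28.1% down and 15.8% up over all 57 miRs. Their median log2 change was -0.77, beside -0.14. On this list miR166 moved one way. miR166b-3p, the most abundant of the family and a guide against HD-ZIP III transcripts, stood at 60134, 57819 and 73086 CPM at day 8, against 107404, 100989 and 120966 CPM at day 3. The 2 groups were well apart. It fell by 0.79 (SE 0.19, edgeR adjusted p = 0.0018). The family mean was carried by this sequence, which held 9.44% of the counts of the 15 libraries. It was high until day 4 and lower after it, with group means of 109787, 120899, 98404, 87403 and 63680 CPM at days 3, 4, 5, 6 and 8. On the scale of all tags its call was lost, as it was in the fit of the 24 water libraries alone and in that of the 6 libraries alone, and its highest adjusted p was 0.46.

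miR166d-5p, the opposite arm, stood at 7805, 7018 and 13512 CPM at day 8, against 25315, 21874 and 11958 CPM at day 3. Replicate 3 of day 8 lay above replicate 3 of day 3, and the other libraries were apart. It fell by 1.06 (SE 0.28, edgeR adjusted p = 0.0033). miR166c-3p fell by 0.77 (SE 0.24, edgeR adjusted p = 0.0099) and miR166a-3p by 0.42 (SE 0.18, edgeR adjusted p = 0.047), and these sequences have an edit distance of 1. The call of miR166c-3p was lost without replicate 1 of day 3 (adjusted p = 0.11) and without replicate 1 of day 8 (0.081). That of miR166a-3p was lost without replicate 1 of day 3 (0.29), replicate 3 of day 3 (0.094), replicate 1 of day 8 (0.40) and replicate 2 of day 8 (0.11), and with the replicate number as a block (0.051). miR166a-5p, at 9.47 counts per library, was DE in the linear trend only, by -0.29 log2 units a day (SE 0.12, edgeR adjusted p = 0.043).

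The miR171 family, which targets GRAS genes of the HAIRY MERISTEM group, held members that moved in opposite directions. In the seed group of 4, miR171a-3p and miR171d-3p rose, while miR171b-3p and miR171f-3p fell. miR171d-3p stood at 486, 724 and 855 CPM at day 8, against 408, 469 and 248 CPM at day 3, without overlap but with a narrow gap. It rose by 0.93 (SE 0.32, edgeR adjusted p = 0.018), a call lost without replicate 3 of day 3 (0.075) or replicate 3 of day 8 (0.082). miR171a-3p rose by 1.29 (SE 0.45, edgeR adjusted p = 0.019) and overlapped between the days, with 190, 565 and 421 CPM at day 8 and 190, 107 and 196 CPM at day 3. Its call was lost without replicate 2 of day 3 (0.087) or replicate 2 of day 8 (0.13).

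miR171f-3p, the most abundant 3p member, stood at 804, 1180 and 1174 CPM at day 8, against 3399, 2217 and 1982 CPM at day 3. All day 8 libraries were below all day 3 libraries. It fell by 1.24 (SE 0.28, edgeR adjusted p = 0.0009). miR171b-3p stood at 296, 297 and 485 CPM at day 8, against 517, 981 and 613 CPM at day 3, and fell by 0.96 (SE 0.30, edgeR adjusted p = 0.011). That call was lost without replicate 2 of day 3 (0.11), replicate 1 of day 8 (0.069) or replicate 2 of day 8 (0.081). miR171b-3p and miR171d-3p have an edit distance of 1, and the ratio of the 2 within a library does not depend on the scaling. The log2 ratio of miR171d-3p to miR171b-3p, chosen after their values were seen, was 0.70, 1.27 and 0.81 in the day 8 libraries, against -0.33, -1.05 and -1.28 in the day 3 libraries. It averaged -0.89 ± 0.50, -0.74 ± 0.43, 1.2 ± 0.55, 0.62 ± 0.20 and 0.93 ± 0.30 at days 3, 4, 5, 6 and 8 (SD, n = 3 each). miR171b-3p was thus the more frequent of the pair in every library of days 3 and 4, and miR171d-3p in every library of days 5, 6 and 8. Since neither miR overlapped between day 8 and day 3, the separation of the ratio at these days followed from the choice.

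In the seed group of 2, both members fell. miR171c-3p was at 42.3, 29.7 and 140 CPM at day 8, against 190, 576 and 222 CPM at day 3, without overlap. Its fitted change was -2.16 (SE 0.50, edgeR adjusted p = 0.0012) on 16 counts at day 8 and 51 at day 3. The ratio of the scaled counts was 0.222 (95% exact interval 0.118 to 0.396, counting error only). miR171g-3p fell by 1.60 (SE 0.57, edgeR adjusted p = 0.020) on 18 counts at day 8 and 40 at day 3. It was lost without replicate 1 (0.077) or 3 of day 3 (0.073) and without replicate 2 (0.079) or 3 of day 8 (0.084). On the 5p side, miR171f-5p stood at 486, 416 and 408 CPM at day 8, against 1958, 1322 and 1161 CPM at day 3. The 3 day 8 libraries were close to each other and far below day 3. It fell by 1.75 (SE 0.31, edgeR adjusted p = 3.6e-05) and was DE under every alternative run. miR171c-5p fell by 1.33 (SE 0.49, edgeR adjusted p = 0.029) with overlap, since replicate 3 of day 8, at 536 CPM, exceeded replicate 3 of day 3, at 300 CPM, and it lost its call without replicate 1 (0.15) or 2 of day 3 (0.11) or replicate 1 (0.13) or 2 of day 8 (0.18). miR171a-5p did not pass the test (0.36, SE 0.54).

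**Figure D3:**
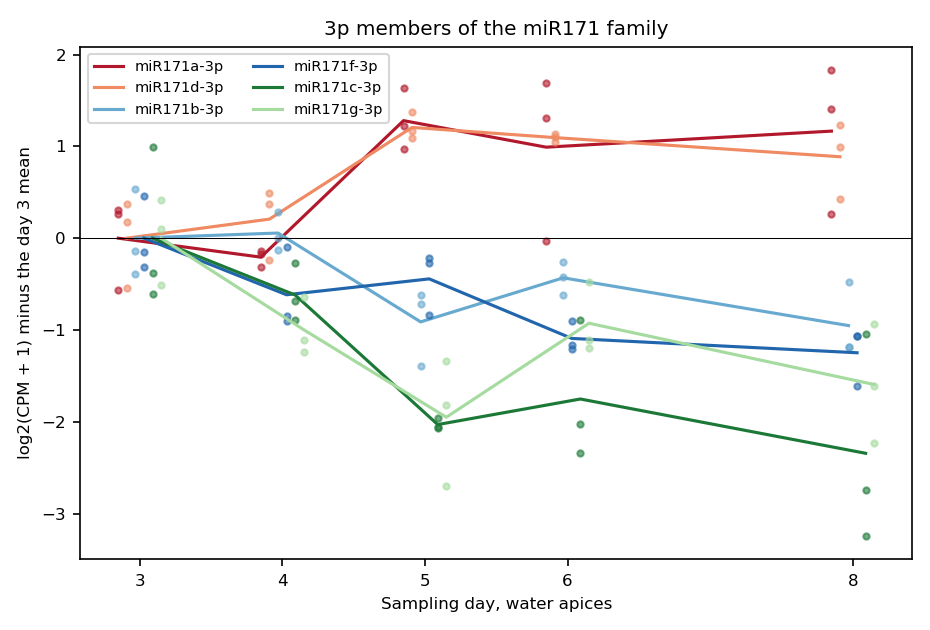
Level of the 6 tested 3p members of the miR171 family in water apices on days 3, 4, 5, 6 and 8, as log2(CPM + 1) minus the day 3 mean, with libraries as points and day means as lines. At day 8 the means of miR171a-3p and miR171d-3p lie above 0 and those of the 4 other members lie below it, and from day 5 on the means of the 2 directions are apart.

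miR394a-3p, the listed sequence of a family that acts on an F-box gene of the stem cell niche in Arabidopsis, stood at 10618, 7613 and 7936 CPM at day 8, against 4677, 5522 and 5673 CPM at day 3. The groups did not overlap. It rose by 0.72 (SE 0.24, edgeR adjusted p = 0.014), and its call was lost without replicate 1 of day 3 (0.068) or replicate 1 of day 8 (0.065). miR164 acts on NAC genes at the boundaries between organs, and its 4 tested members did not pass the test, with log2 changes between -0.61 and 0.16.

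The TCP and GRF list (miR319 and miR396) had 6 tested members, of which 4 rose and none fell, beside 15.8% up over all 57 miRs. The 4 that rose were 5p arms. All 6 had a positive change, beside 26 of the 57, with a median log2 change of 1.39. The sequence named both miR159c-3p and miR319a-3p is not among them. With it the list had 7 members, of which 4 rose, and a median of 1.21. miR396a-5p, a guide against growth-regulating factors, stood at 2242, 3231 and 1837 CPM at day 8, against 1060, 959 and 1135 CPM at day 3. The day 8 libraries were all above the day 3 libraries. It rose by 1.21 (SE 0.31, edgeR adjusted p = 0.0025), a fold change of 2.32. The group means were 1051 ± 88 CPM at day 3, 928 ± 313 at day 4, 2170 ± 212 at day 5, 1911 ± 959 at day 6 and 2437 ± 717 at day 8 (SD, n = 3 each). Replicate 1 of day 6, at 953 CPM, was at the level of days 3 and 4, while the 2 others were at 2871 and 1910 CPM.

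miR396b-5p had the largest fitted rise, 2.76 (SE 0.74, edgeR adjusted p = 0.0033), from few counts. Its counts were 5, 31 and 17 at day 8, against 1, 1 and 3 at day 3, which is at or below the floor in each day 3 library. The ratio of scaled counts was 7.50 (95% exact interval 3.02 to 24.1, counting error only). At 6 hours and on day 1 the water apices had averaged 264 ± 79 and 236 ± 57 CPM (SD, n = 3 each), near the 210 ± 101 CPM of day 8, so that day 3, at 29.2 ± 9.1 CPM, was the low point of the course.

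The opposite arm of miR319a-5p and miR319d-5p is the sequence shared with miR159c-3p, which had a log2 change of 0.16 and was not DE. miR319a-5p, an arm of the family that targets TCP genes, stood at 1184, 446 and 536 CPM at day 8, against 81.6, 235 and 339 CPM at day 3. The groups did not overlap. It rose by 1.56 (SE 0.45, edgeR adjusted p = 0.0065), and without replicate 1 of day 8 the adjusted p was 0.069. miR319d-5p rose by 1.72 (SE 0.72, edgeR adjusted p = 0.047) on 34 counts at day 8 and 7 at day 3, with 0 in replicate 1 of day 3, and lost its call without any of the 6 libraries except replicate 2 of day 3 (0.069 to 0.22). With the replicate number as a block its edgeR adjusted p was 0.054. The ratio of its scaled counts was 3.44 (95% exact interval 1.50 to 9.19, counting error only). miR396a-3p and miR319b-3p did not pass the test, with log2 changes of 0.97 (SE 0.50) and 0.41 (SE 0.41). Apart from the fits that left out single libraries or 1 replicate number, miR396a-3p was DE under 5 of 12 alternatives, among them RLE factors and DESeq2. The log2 ratio of miR396a-5p to miR396a-3p averaged 2.85 ± 0.87 at day 3 and 3.01 ± 0.78 at day 8 (SD), with overlap. A difference between these 2 arms was thus not shown. Without the libraries of the highest and lowest scaling factor, miR396a-5p and miR396b-5p were no longer DE.

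Of the phosphate and sulfate list, 2 of 3 tested members fell and none rose, beside 28.1% down over all 57 miRs, and the 2 are the arms of 1 hairpin. miR827a-3p, a miR of phosphate status, stood at 1629, 1398 and 3126 CPM at day 8, against 4160, 5074 and 8255 CPM at day 3, without overlap. It fell by 1.51 (SE 0.45, edgeR adjusted p = 0.0082), and lost its call without replicate 3 of day 3 (0.075) or replicate 1 of day 8 (0.063). The other arm, miR827a-5p, fell by 1.49 (SE 0.45, edgeR adjusted p = 0.00935), with 84.6, 208 and 370 CPM at day 8 and 653, 767 and 548 CPM at day 3, and lost its call without replicate 1 of day 8 (0.069). miR399a-3p, also of phosphate status, did not pass (0.85, SE 0.67), and neither did any of the 3 tested members of the copper list, miR408a-3p (1.3, SE 0.77), miR528a-5p (0.66, SE 0.57) and miR528c-3p (0.37, SE 0.82). The miRs of nutrient status (miR395, miR397, miR398, miR399, miR408, miR528, miR827 and miR857) stood in for leaf and vascular tissue. Of 33 listed sequences 9 had a count at day 8 and 13 at day 3. miR397 gave no count in the 15 libraries, and no miR857 was listed. Their sum was 2115 to 4542 CPM at day 8 and 5438 to 9259 CPM at day 3, most of it miR827a-3p. The share of leaf or vascular tissue in the changes described was not tested.

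Among the miRs of small RNA machinery, 1 of 3 tested members rose, beside 15.8% of all 57 miRs. miR168b-3p, the opposite arm of a guide against ARGONAUTE1, stood at 5288, 5482 and 8587 CPM at day 8, against 4242, 3816 and 3873 CPM at day 3. The groups were apart, and it rose by 0.70 (SE 0.22, edgeR adjusted p = 0.011), a call lost without replicate 3 of day 8 (0.14). miR168a-5p, the guide itself, had a log2 change of -0.15 (SE 0.18), and miR162a-3p, which targets the dicer that makes miRs, 0.20 (SE 0.15). Among the MYB list, 1 of 5 rose, near the same 15.8%. It was miR159e-3p, by 1.06 (SE 0.44, edgeR adjusted p = 0.047), with overlap and with a call lost without replicate 1 (0.18) or 3 of day 3 (0.17) or replicate 1 of day 8 (0.15), and with the replicate number as a block (0.053). The abundant sequences listed under miR159, which targets GAMYB-like genes, did not pass the test. The sequence of miR159c-3p, miR319a-3p and miR319d-3p, at 39.3% of the counts of the 15 libraries, had 658382, 283645 and 421241 CPM at day 8, against 478206, 297703 and 443843 CPM at day 3. The days overlapped, and its log2 change was 0.16 (SE 0.29, edgeR adjusted p = 0.67). miR159j-3p, at 27.6%, missed the threshold (-0.52, SE 0.24, edgeR adjusted p = 0.067), and miR159a-3p and miR159b-3p stood at -0.05 and -0.20.

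Among the 8 tested members of the monocot list, 1 fell, beside 28.1% of all 57 miRs. It was miR1863a-3, by 0.61 (SE 0.23, edgeR adjusted p = 0.030). It stood at 3278, 2647 and 2463 CPM at day 8, against 5166, 3944 and 3691 CPM at day 3, without overlap. That call was lost without replicate 1 (0.19) or 3 of day 3 (0.051) or any library of day 8 (0.063 to 0.11), and under all 4 other scalings. miR7782a-5 was the nearest of all to the threshold on its far side (-0.66, SE 0.29, edgeR adjusted p = 0.056). miR530a-5p, among the 10 most abundant miRs, did not pass either (-0.60, SE 0.48), with 15166, 7266 and 8676 CPM at day 8 and 21970, 16522 and 8698 CPM at day 3.

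The miRs of age and phase, which bear on the readiness of a shoot to flower, were not DE. miR172a-3p, a guide against AP2-like genes that delay flowering, stood at 1629, 1834 and 1059 CPM at day 8, against 979, 1215 and 1708 CPM at day 3. The days overlapped, and the log2 change was 0.19 (SE 0.25, edgeR adjusted p = 0.57). miR172b-3p had a log2 change of 0.72 (SE 0.59), with 32 counts at day 8 and 14 at day 3. The other listed miR172 sequences had few counts in the 15 libraries, with 62 for miR172a-5p, 41 for miR172c-5p, 2 for miR172d-5p and 0 for miR172b-5p. The miR156 family, which holds back the adult phase, had 66 counts in all, of which 25 were from day 8 and 11 from day 3. These were 34 counts of miR156a-3p, 20 of miR156a-5p, 7 of miR156c-5p and 5 of miR156b-5p, while the 8 other listed entries of the family had 0. The ratio of the scaled counts of the family was 1.61 (95% exact interval 0.764 to 3.62, counting error only). Its sequences were below the filter on low counts and were not tested. No miR157 was listed and none of the NBS-LRR defence list.

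The calls between neighbouring samplings lay between day 4 and day 5, but the steps were not tested against each other. By edgeR, 12 of 57 miRs (21.1%) were DE between day 5 and day 4, 7 up (12.3%) and 5 down (8.77%). The 7 include both miR393a-5p and miR393b-5p, which have the same counts and are 1 measurement. None was DE between day 4 and day 3, day 6 and day 5 or day 8 and day 6, where 5 in each step (8.77%) had an unadjusted p under 0.05. DESeq2 and limma-voom called 0 in these 3 steps as well. Between day 5 and day 4, miR167a-5p fell by 1.14 (SE 0.23, edgeR adjusted p = 0.00056). The others that fell were miR171f-5p (-0.93), miR171b-3p (-0.93), miR390a-5p (-0.87) and miR171c-3p (-1.43). Those that rose included miR396a-5p (1.23), miR168b-3p (0.87), miR171a-3p (1.50), miR171d-3p (0.97) and miR394a-3p (0.80). miR393a-5p and miR393b-5p also rose, by 1.91 (SE 0.50, edgeR adjusted p = 0.0051), with 239, 257 and 247 CPM at day 5 against 47.9, 89.7 and 56.5 CPM at day 4. At day 8 they stood at 84.6 to 217 CPM, below each day 5 library, but neither step after day 5 passed the test.

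Of the 25 miRs DE between day 8 and day 3, 14 had their largest step from day 4 to day 5, 6 from day 3 to day 4, 2 from day 5 to day 6 and 3 from day 6 to day 8. Taking the 4 steps in turn, 5 of the 25 moved in the direction of the whole change at every step, 15 at 3 and 5 at 2. The 5 were miR159e-3p, miR166a-3p, miR390a-5p, miR396b-5p and miR827a-5p. For the 12 miRs of the day 5 step, with miR393a-5p and miR393b-5p counted separately, all libraries of day 3 lay nearer to the day 4 mean in 12 of 12. The day 3 libraries did not enter that step. Of the later libraries, replicates 1, 2 and 3 of day 8 lay nearer to the day 5 mean in 7, 10 and 11, and replicates 2 and 3 of day 6 in 11 and 10. Replicate 1 of day 6 lay nearer to day 5 in 4 only. The number of calls in the day 5 step fell to 7 without replicate 1 of day 4 and to 7 without replicate 2 of day 5, and it was 2 on the scale of all tags. Over all fits that left out libraries it ran from 1 to 13.

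Over the 5 days, 20 of 57 miRs (35.1%) were DE in an F test of any difference and 23 (40.4%) in a linear trend, 9 up (15.8%) and 14 down (24.6%). The 20 again count miR393a-5p and miR393b-5p separately. These tests share their libraries with the comparison of day 8 and day 3 and are not independent of it. The steepest trends of those named were miR396b-5p at 0.52 log2 units a day (SE 0.13) and miR171c-3p at -0.42 (SE 0.09). The smallest p was again that of miR167a-5p, at -0.31 a day (SE 0.04, edgeR adjusted p = 2.8e-07 in the trend and 2.0e-07 in the F test). It was followed by miR171f-5p at -0.35, miR396a-5p at 0.28, miR166b-3p at -0.18, miR171f-3p at -0.24, miR390a-5p at -0.27 and miR394a-3p at 0.20. Without replicate 1 of day 6, 25 were DE in the trend and 21 in the F test.

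Summed by family, 8 of 23 families (34.8%) were DE between day 8 and day 3, with 3 up (13%) and 5 down (21.7%). miR396 rose by 1.26 (SE 0.29), miR319 by 1.08 (SE 0.33) and miR394 by 0.72 (SE 0.23). The sum of miR319 leaves out the sequence it shares with miR159, which held far more counts than all its other members. With that sequence counted as miR319, an alternative chosen after the data were seen, miR319 had a log2 change of 0.16 (SE 0.29, edgeR adjusted p = 0.63) and 7 families were DE. Those that fell were miR167 (-1.60, SE 0.23), miR827 (-1.51, SE 0.46), miR390 (-1.16, SE 0.29), miR171 (-0.93, SE 0.20) and miR166 (-0.75, SE 0.16). The total of miR171 thus fell although 2 of its members rose. miR172 did not pass (0.24, SE 0.25), nor did miR159 (-0.13, SE 0.22, or -0.45, SE 0.22, without the shared sequence), miR160 (-0.23, SE 0.19) and miR164 (-0.23, SE 0.23). On the scale of all tags, 5 families were DE, 4 up and 1 down.

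Whether the change with time was particular to water apices was tested as the difference from the same change in ethephon apices, which share no library with it. By edgeR, 0 of 57 miRs were DE in this difference (0%), with 8 (14%) at an unadjusted p under 0.05, and DESeq2 and limma-voom also called 0, with 8 and 9. In ethephon apices 8 miRs (14%) were DE between day 8 and day 3, and 5 of these were among the 25 of water apices, namely miR166b-3p, miR166c-3p, miR167a-5p, miR171d-3p and miR394a-3p. That is 20% of the water calls and 62.5% of the ethephon calls. miR167a-5p fell by 1.62 in water and by 1.21 in ethephon apices, with a difference of -0.41 (SE 0.32), so that an interval of 2 SE ran from -1.05 to 0.23. Its ethephon libraries had 7899, 4878 and 5549 CPM at day 8, against 14602, 12900 and 14765 CPM at day 3. miR166b-3p fell by 0.79 and 0.71, with a difference of -0.07 (SE 0.27).

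**Figure D4:**
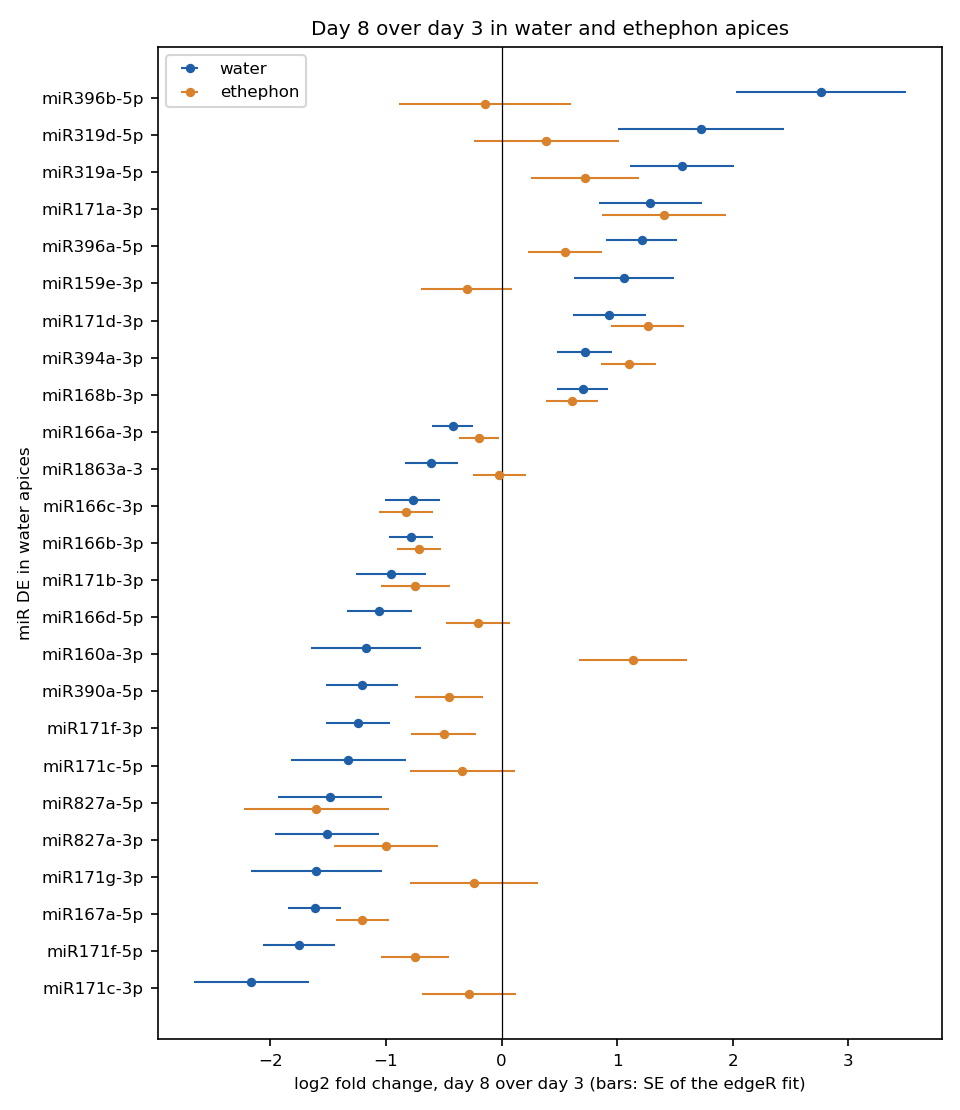
Log2 fold change of day 8 over day 3 for the 25 miRs DE in water apices, in water (upper point, blue) and in ethephon apices (lower point, orange), with bars of 1 SE from the edgeR fit. In 22 of the 25 the sign is the same in both (88%), beside 40 of all 57 tested miRs (70.2%), and the points of miR396b-5p, miR159e-3p and miR160a-3p lie on opposite sides of 0.

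The 8 miRs at an unadjusted p under 0.05 are given with their differences, none of which passed adjustment. miR160a-3p had the smallest adjusted p of the difference (0.071, edgeR), at -2.31 (SE 0.67). In water it stood at 169, 119 and 281 CPM at day 8 and 272, 640 and 365 CPM at day 3, and in ethephon apices at 362, 302 and 523 CPM at day 8 and 174, 193 and 172 CPM at day 3. Its adjusted p was 0.014 without replicate 3 of water day 8 and 0.043 without replicate 1 of water day 3. The difference was -1.88 for miR171c-3p (SE 0.65, edgeR adjusted p = 0.16). For miR396b-5p it was 2.91 (SE 1.08, edgeR adjusted p = 0.18). miR528c-3p differed by -2.64 (SE 1.16) and was DE in ethephon apices alone, and miR171f-5p differed by -1.0, miR7782a-5 by -0.98, miR159e-3p by 1.36 and miR166d-5p by -0.85, each with an adjusted p of 0.22 to 0.26. The day 5 step, compared with the same step in ethephon apices after the water calls were known, gave 0 DE miRs in edgeR. There 3 miRs (5.26%) had an unadjusted p under 0.05, and DESeq2 and limma-voom, with 5 and 3, also called 0. miR167a-5p fell there by 1.14 in water and 1.06 in ethephon apices.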

How the data were processed

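Small RNA had been sequenced from pineapple apices at 8 samplings in 2 treatments, with 3 libraries in each of 16 groups. According to the study's methods, the authors trimmed adapters, collapsed reads and aligned them to mature miRs of miRBase. Neither the aligner nor its mismatches is given in the sources used here. The deposited table held raw counts of 190 sequences, and a score of the authors, reads per 1e+07 tags rounded to whole numbers, from which the tags of each library were recovered. The deposited list of names and sequences is of an other kind, with no measurement. No column was left out (0).

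Counts were tested in R 4.3.3 with edgeR 4.0.16 (quasi-likelihood, TMM factors, a mean for each of the 16 groups over 48 libraries). filterByExpr (minimum count 10, minimum total 15) kept 57 of the 127 sequences with a count, and 114 had a count in the 15 libraries described. The common biological coefficient of variation was 0.246. Adjustment was by Benjamini-Hochberg over the 57, and DE means an adjusted p under 0.05. The SE is the absolute log2 change over the square root of F. Families were counts summed by number in the name, and a sequence with several names was counted under its name in the count table. Edit distance counts insertions, deletions and substitutions. The labels give each library a replicate number, and their protocol describes 3 field replications with 3 plants taken from each. None had the counts of another.

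The samples, lists and rule were chosen with earlier results of these data known. The rule named the DE miRs of day 8 minus day 3 (up to 12 per direction by p), up to 8 of each other test, the 10 most abundant miRs, all of miR156, miR157 and miR172, the 3 members of smallest p in each list, and the 3 nearest the threshold. Alternatives were RLE factors, no composition factor, all tags, TMM without the most abundant miR, no filter, DESeq2 1.42.0, limma-voom (limma 3.58.1), a replicate block, fewer libraries and leaving out libraries. The day 5 step against ethephon and the fit without the 2 libraries of extreme scaling factor were added after seeing the data, as were family sums with the sequence shared by miR159 and miR319 counted as miR319. The test was tried on simulated counts of the 57 miRs for day 8 minus day 3. Of miRs changed by 1 log2 unit 48.1% were called, of 2 units 88.8%, and of unchanged ones 0.61%. The simulation took its spread and scaling factors from the fit, changed as many miRs up as down, and left the most abundant ones unchanged. It therefore cannot show errors of scaling from unbalanced changes, and gives no rate of false calls for the real comparison.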

Additional observations from a re-analysis of the deposited data

How the results depend on the processing

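The scaling moved the count of DE miRs more than the tool did. Between day 8 and day 3 there were 25 DE miRs, and 21 with DESeq2, 25 with limma-voom, 20 with RLE factors, 18 with no composition factor, 21 with TMM factors made without the most abundant miR, 18 with no filter, 18 in the 24 water libraries and 22 in the 15. With all sequencing tags as the scale, the count was 13 for day 8 against day 3, 14 for the trend, 2 for day 5 against day 4 and 5 for families, and miR166a-3p stood at 0.13 in place of -0.42. In the 6 libraries alone, 11 were DE. Without the 2 libraries of extreme scaling factor, chosen after seeing the data, 7 were DE, and 15 in the trend. With no filter, 1 miR was DE between day 4 and day 3, and 3 in the difference between water and ethephon apices, led by miR160d-3p, which has 0 counts in all 3 water libraries of day 8 and 6, 1 and 3 at day 3. The cause was not tested. In the fits that left out libraries, the count was 7 to 26 for day 8 against day 3, 4 to 21 for the F test, 11 to 27 for the trend, 1 to 13 for day 5 against day 4, 0 to 2 for day 8 against day 6, 3 to 10 for families, 0 to 2 for the difference between treatments and 0 to 1 for that of the day 5 step. The lowest of these, 7, was without replicate 2 of every group. The median of all miRs moved by 0.26 with RLE factors, 0.25 with no composition factor, 0.21 with TMM without the most abundant miR, 0.47 on all tags, 0.18 with no filter, 0.27 with DESeq2 and 0.32 in the 24 water libraries.

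Replicate numbers were not taken to pair the libraries. The same-numbered libraries of day 8 and day 3 correlated at -0.17, -0.11 and -0.13 in their deviations. Over all pairs of the 5 days, same-numbered libraries had a mean r of 0.046 with 14 of 30 above 0.1, and others -0.022 with 17 of 60. With the replicate number as a block, 22 miRs were DE between day 8 and day 3 (miR159e-3p, miR166a-3p and miR319d-5p were lost, at an adjusted p of 0.051 to 0.054), 23 in the trend, 20 in the F test, 12 between day 5 and day 4, 8 families, and 0 in the difference between treatments. Depth limits miRs under about 10 counts a library, among them miR171c-3p, miR171g-3p, miR319d-5p and miR396b-5p, and all of miR156.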

Other observations

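Beyond day 3 to day 8, the water apices of 6 hours and day 1 showed where the later levels stood in the whole course. Of the 25 miRs DE between day 8 and day 3, 15 (60%) were nearer on day 1 to their day 8 than to their day 3 level, beside 37 of all 57 (64.9%), and 8 (32%) on day 2, beside 20 of 57 (35.1%). A share so near to that of all tested miRs is no result about the 25. Among single miRs, miR396a-5p stood at 1950 ± 425 CPM at 6 hours, 2411 ± 607 CPM on day 1 and 1190 ± 139 CPM on day 2 (SD, n = 3 each), and miR166b-3p at 107599 ± 9854, 117397 ± 4477 and 114878 ± 17703 CPM, so that the day 8 level of miR166b-3p, 63680 ± 8228 CPM, was the lowest group mean of the 8 water samplings.

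The ratio of miR394a-3p to miR166b-3p within a library, chosen after their values were seen, gave log2 values of -2.5, -2.92 and -3.20 at day 8, against -4.52, -4.19 and -4.41 at day 3. It does not depend on the scaling. Since miR394a-3p rose and miR166b-3p fell without overlap, the separation of the ratio followed from the choice and adds no support to either call. The ratio of miR396a-5p to miR167a-5p, whose separation followed from the choice in the same way, was -0.81, -0.25 and -1.69 at day 8. At day 3 this ratio was -3.85, -4.00 and -3.31. In replicate 1 of day 6 it was -3.43, at the level of days 3 and 4, while the 2 other libraries of that day were at -0.97 and -1.83.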
